A study of Homo sapiens with 4 samples.

Results

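The immediate early response genes are 10 genes chosen by name, FOS, FOSB, FOSL1, JUN, JUNB, EGR1, ATF3, IER2, IER3 and MYC, out of 61544 genes in the count table. Each was found through its Ensembl identifier, and the rule uses no measured value. Of the 10, 9 passed a filter on low counts, and IER3 did not. Across 24 h of bacterial lipopolysaccharide (LPS), none of the 9 differed between the LPS and the control library of a line by more than 0.58 on the log2 scale. In both lines FOS was slightly lower, and EGR1 and MYC slightly higher, in the single LPS library than in the single control library, and FOSB was higher in one line and lower in the other. The differences of FOS, EGR1 and MYC did not pass the LPS test over both lines (edgeR adjusted p = 0.31, 0.52 and 0.69). That test looks for a change that the lines share. It did not call FOSB (edgeR adjusted p = 0.98), but it could not decide on ratios of opposite sign. Larger differences separated the lines themselves: JUN was 6.35-fold higher in HT29 than in HCT116, and ATF3 was 7.64-fold higher in HCT116 than in HT29.

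Immediate early genes are transcribed within minutes of a growth factor, stress or inflammatory signal, without the need for new protein, because the factors that drive them, such as serum response factor with its ternary complex partners and CREB, already sit in the nucleus and are switched on by MAP kinases. FOS, FOSB and FOSL1 (Fra-1) encode basic leucine zipper proteins that pair with JUN or JUNB to form AP-1, EGR1 encodes a zinc finger factor, ATF3 a stress-induced partner of the Jun proteins, and MYC a factor of growth and ribosome production. Their transcripts are short-lived, are marked for decay by AU-rich elements, and usually decline again within hours of a single stimulus.

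RNA of the human colorectal cancer cell lines HT29 and HCT116 was sequenced, and each line contributed 1 library of cells kept for 24 h in LPS at 1 ug/mL and 1 control library, 4 libraries in all. HT29 and HCT116 are established tumour lines grown here in the same serum-containing medium, and LPS is the outer membrane component of Gram-negative bacteria sensed by TLR4. The study sought drug candidates for inflammatory bowel disease from genes tied to the glucocorticoid receptor and TET2. As a part of this it compared how lines with unlike basal levels of the receptor respond to LPS. It reported hardly any mRNA of the receptor in HT29, in contrast to HCT116. The deposited values are raw counts per gene, which summed to 20831247 in HT29 LPS, 19105058 in HT29 control, 19805162 in HCT116 LPS and 21268959 in HCT116 control. No condition has a repeat culture and 24 h is the sole time point, so the first hours of a response were not measured. Because these are bulk libraries, fewer cells that make a transcript and less transcript per cell cannot be told apart.

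The lines were checked against cell type markers, with levels in CPM, a gene's count scaled to a common library total. Epithelial markers summed to 19184 and 20526 CPM in HT29 LPS and HT29 control and to 5328 and 5383 CPM in HCT116 LPS and HCT116 control, with KRT20, which has a copy elsewhere in the reference, at 0 in every library. Leukocyte markers summed to 1051 and 1036 CPM in HT29 LPS and control, carried by LYZ with 20709 and 18532 counts, while PTPRC, which also has a copy, and CD3E had 0 to 2 counts in every library. They summed to 2.13 and 2.52 CPM in HCT116 LPS and control, where LYZ was at 0. Fibroblast markers reached 98.7 and 99.6 CPM in HCT116 LPS and control through COL1A1, with DCN and COL1A2 at 0 everywhere, against 4.03 and 5.27 CPM in HT29 LPS and control. Endothelial markers stayed between 1.61 and 2.52 CPM. Mitochondrial transcripts took 4.29% of the counts in HT29 LPS and 3.75% in HT29 control, and 7.16% in HCT116 LPS and 5.01% in HCT116 control, so this share was larger with LPS in each line. Its part in the LPS values given here was not tested.

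Within a line, each gene was given the log2 ratio of its CPM in the LPS library to that in the control library, after TMM scaling and with a prior count of 2. The bracketed intervals, at 95% and from the exact Clopper-Pearson method, leave the prior count out and allow for counting error alone. Such an interval narrows with depth, so a gene with many counts can leave out 0 at a small ratio. Shares of all genes given beside interval counts, here and below, are not matched for depth. A single library stands for each condition, so no test can be run inside a line. None of the 9 measured members lay past a log2 ratio of 0.58 in HT29, where 6.2% of 13201 genes did (3.5% above and 2.7% below). None did in HCT116, where 5.9% of 14337 genes did (3.56% above and 2.34% below). Their median log2 ratio was 0.04 in HT29 and 0.06 in HCT116, beside -0.0076 and -0.0025 over all genes measured. The counting interval left out 0 for 4 of 9 members in HT29 (3 above and 1 below), against 34.4% of genes (15.9% above and 18.5% below), and for 6 of 9 in HCT116 (4 above and 2 below), against 35.2% (17% above and 18.2% below). The plot of log2 ratios by gene shows these values side by side.

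**Figure D1:**
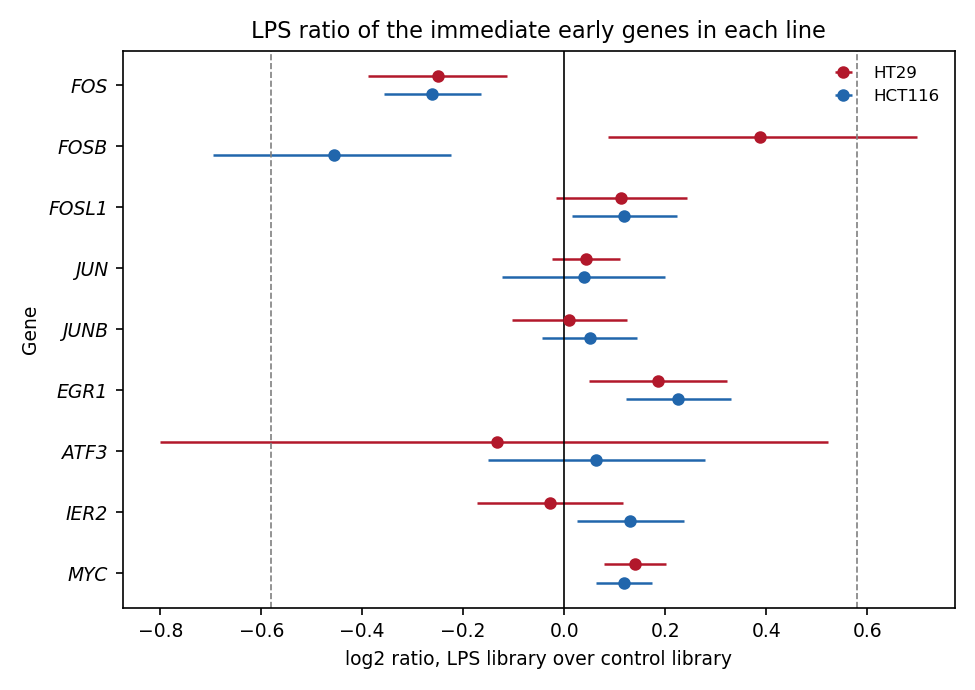
Log2 ratio of CPM in the LPS library to the control library (x axis) for the 9 measured members (y axis), HT29 in red and HCT116 in blue. Points are ratios, bars are 95% counting intervals, the solid line marks 0 and the dashed lines mark -0.58 and 0.58. Every point lies between the dashed lines, and FOSB is the gene whose intervals lie on opposite sides of 0.

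FOS (ENSG00000170345.10, hg38 chromosome 14, 75278826 to 75282230, plus strand, 3 exon blocks), the founding member of the Fos family, had 840 counts in HT29 LPS against 908 in HT29 control, and 1552 counts in HCT116 LPS against 2033 in HCT116 control. On the CPM scale this was 42.3 in HT29 LPS against 50.4 in HT29 control, and 75.0 in HCT116 LPS against 89.9 in HCT116 control. The LPS library was the lower one in each line, and both HT29 libraries lay below both HCT116 libraries. The log2 ratio was -0.25 (interval -0.39 to -0.11) in HT29 and -0.26 (interval -0.36 to -0.17) in HCT116, and the difference between these ratios, HT29 minus HCT116, was 0.01 (interval -0.16 to 0.18). FOS was the sole member with both intervals below 0, a pattern that 6.34% of the 12085 genes measured in both lines showed.

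FOSB (ENSG00000125740.14, chromosome 19, 45467995 to 45475179, plus strand, 3 exon blocks), a close relative of FOS, had 221 counts in HT29 LPS against 153 in HT29 control, and 249 counts in HCT116 LPS against 374 in HCT116 control. Its CPM was 11.1 in HT29 LPS against 8.48 in HT29 control, and 12.0 in HCT116 LPS against 16.5 in HCT116 control. The LPS library was therefore the higher one in HT29 and the lower one in HCT116, and the LPS libraries of both lines lay closer together than the control libraries. The log2 ratio was 0.39 (interval 0.09 to 0.70) in HT29 and -0.46 (interval -0.70 to -0.22) in HCT116. The ratio in HT29 minus that in HCT116 was 0.84 (interval 0.47 to 1.23), and FOSB was the 1 member of 9 whose difference had an interval clear of 0, against 31.3% of all genes measured in both lines (15.3% above and 16% below). Signs that oppose with both intervals clear of 0 were found in 4.45% of genes. With no repeat library this difference could not be tested, and after IER3 and ATF3 FOSB is the least deeply sampled member.

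The proximal promoters of FOS and FOSB are shown because the 2 genes are near relatives whose LPS ratios agreed in HCT116 and parted in HT29. Each sequence runs from 250 bases before to 50 bases after the RefSeq start site on GRCh38.p14 (FOS, chr14:75278578-75278877, plus strand, and FOSB, chr19:45467746-45468045, plus strand), and capitals mark the motif TGACG, which is one end of the CREB site TGACGTCA, and the TATA motif TATAAA.
FOS: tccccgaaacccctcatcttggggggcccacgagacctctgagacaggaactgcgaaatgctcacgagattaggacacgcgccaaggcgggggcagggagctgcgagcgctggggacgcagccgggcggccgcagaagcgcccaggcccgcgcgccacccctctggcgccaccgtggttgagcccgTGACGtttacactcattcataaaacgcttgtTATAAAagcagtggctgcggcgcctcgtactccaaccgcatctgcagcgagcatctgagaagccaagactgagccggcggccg
FOSB: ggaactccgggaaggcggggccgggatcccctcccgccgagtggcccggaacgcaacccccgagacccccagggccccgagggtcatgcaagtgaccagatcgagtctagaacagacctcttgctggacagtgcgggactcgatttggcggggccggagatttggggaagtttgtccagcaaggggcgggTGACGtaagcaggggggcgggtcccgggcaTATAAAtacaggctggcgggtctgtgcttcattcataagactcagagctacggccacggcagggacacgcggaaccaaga
In FOS the TGACG begins 64 bases and the TATAAA 33 bases before the start site, and in FOSB they begin 60 and 30 bases before it, so both motifs stand in the same order and at nearly the same places in the pair. Counting both strands, TGACG occurs in 24.6% and TATAAA in 11.5% of the 35116 promoters of this length in the table. The full site TGACGTCA (1.85% of promoters), the AP-1 site TGANTCA (7.71%), TGACATCA (2.61%) and the CArG box, the sequence bound by serum response factor (1.29%), had no match within these windows. The motifs and the promoters shown were chosen after the values were seen.

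FOSL1 (ENSG00000175592.9, chromosome 11, 65892049 to 65900573, minus strand, 4 exon blocks) encodes Fra-1, a Fos protein that lacks the strong activation domain of FOS and is abundant in many carcinoma lines. It had 1054 counts in HT29 LPS against 885 in HT29 control, and 1506 counts in HCT116 LPS against 1515 in HCT116 control, which is 53.1 against 49.1 CPM in HT29 and 72.8 against 67.0 CPM in HCT116. The LPS library was slightly higher in both lines once depth was scaled. This gave a log2 ratio of 0.11 (interval -0.02 to 0.24) in HT29 and 0.12 (interval 0.02 to 0.22) in HCT116, so the interval left out 0 in HCT116 and included it in HT29. The difference of the ratios was -0.0063 (interval -0.17 to 0.16).

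JUN (ENSG00000177606.8, chromosome 1, 58776845 to 58784048, minus strand, 4 exon blocks), which binds DNA as a dimer with Fos proteins or with itself, had 3718 counts in HT29 LPS against 3277 in HT29 control, and 609 counts in HCT116 LPS against 648 in HCT116 control. Its CPM was 187.3 in HT29 LPS against 181.7 in HT29 control, and 29.4 in HCT116 LPS against 28.6 in HCT116 control. The gap between the lines was far wider than the gap between LPS and control. The LPS log2 ratio was 0.04 in HT29 (interval -0.02 to 0.11) and 0.04 in HCT116 (interval -0.12 to 0.20), and both intervals included 0. Removing the trends of the log2 ratios with gene length and GC content moved the HCT116 value to -0.02.

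The JUN promoter (GRCh38.p14, chr1:58783998-58784297, minus strand, 250 bases before to 50 after the RefSeq start site) is shown because JUN was the member with the largest level difference in favour of HT29. Capitals mark TGACG and TGACATCA, the proximal element known to bind dimers of JUN and ATF2.
JUN: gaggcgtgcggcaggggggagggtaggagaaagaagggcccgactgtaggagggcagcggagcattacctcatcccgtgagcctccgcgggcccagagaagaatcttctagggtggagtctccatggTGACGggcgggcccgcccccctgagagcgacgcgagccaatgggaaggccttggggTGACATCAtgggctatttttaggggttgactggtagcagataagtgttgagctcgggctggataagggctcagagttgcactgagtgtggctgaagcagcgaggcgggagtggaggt
TGACG begins 123 bases and TGACATCA 67 bases before the start site. TGACATCA also occurs in the first of the pair of ATF3 promoter entries, 123 bases before its start site. A match of letters describes the sequence and says nothing of what was bound in these cells.

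JUNB (ENSG00000171223.6, chromosome 19, 12791486 to 12793315, plus strand, 1 exon block), a Jun protein that often restrains JUN, had 1313 counts in HT29 LPS against 1184 in HT29 control, and 1770 counts in HCT116 LPS against 1868 in HCT116 control. Its CPM was 66.1 in HT29 LPS against 65.7 in HT29 control, and 85.5 in HCT116 LPS against 82.6 in HCT116 control. The log2 ratio was 0.01 (interval -0.10 to 0.12) in HT29 and 0.05 (interval -0.04 to 0.15) in HCT116, and neither interval left out 0. JUNB shares 259 exon bases with HOOK2 on the opposite strand, which had 1188 and 945 counts in HT29 LPS and control and 2964 and 2956 in HCT116 LPS and control. Whether the counting used strand is not stated, so JUNB and HOOK2 reads over those bases cannot be told apart.

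EGR1 (ENSG00000120738.8, chromosome 5, 138465479 to 138469303, plus strand, 2 exon blocks) encodes the zinc finger factor whose promoter is a textbook target of serum response factor. It had 987 counts in HT29 LPS against 788 in HT29 control, and 1537 counts in HCT116 LPS against 1436 in HCT116 control. Its CPM was 49.7 in HT29 LPS against 43.7 in HT29 control, and 74.3 in HCT116 LPS against 63.5 in HCT116 control. The LPS library was the higher one in both lines, with a log2 ratio of 0.19 (interval 0.05 to 0.32) in HT29 and 0.23 (interval 0.12 to 0.33) in HCT116. The difference of the ratios was -0.04 (interval -0.21 to 0.13). EGR1 and MYC were the 2 of 9 members with both intervals above 0, against 4.41% of the genes measured in both lines.

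The EGR1 promoter (GRCh38.p14, chr5:138465229-138465528, plus strand, 250 bases before to 50 after the RefSeq start site) is shown because EGR1 is the member with the largest LPS ratio of the same sign in both lines on the higher side, and because it alone among the members searched holds CArG boxes in this window. Capitals mark the CArG boxes and CGTCA, which is TGACG read on the other strand.
EGR1: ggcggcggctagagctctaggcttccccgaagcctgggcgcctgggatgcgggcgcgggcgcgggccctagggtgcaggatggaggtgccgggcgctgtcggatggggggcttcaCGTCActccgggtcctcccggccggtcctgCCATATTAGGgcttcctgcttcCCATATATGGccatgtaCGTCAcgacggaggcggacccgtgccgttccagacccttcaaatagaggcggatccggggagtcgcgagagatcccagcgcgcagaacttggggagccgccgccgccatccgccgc
The CArG boxes begin 105 and 83 bases before the start site and lie between the CGTCA matches at 135 and 66 bases before it. CArG boxes were found in 1.29% of all promoters of this length. Among the other members searched, JUNB holds TGACG at 137 and TATAAA at 31 bases before its start site, and IER2 holds CGTCA at 140 bases before. Promoters were searched for 7 of the 10 members.

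ATF3 (ENSG00000162772.17, chromosome 1, 212565334 to 212620777, plus strand, 5 exon blocks), a stress-induced factor that pairs with Jun proteins and limits Toll-like receptor output in mouse macrophages, was the least abundant of the 9 measured members in HT29. It had 41 counts in HT29 LPS against 41 in HT29 control, and 351 counts in HCT116 LPS against 367 in HCT116 control. Its CPM was 2.07 in HT29 LPS against 2.27 in HT29 control, and 17.0 in HCT116 LPS against 16.2 in HCT116 control. LPS and control libraries lay close together in each line while the lines did not overlap. For ATF3 the log2 ratio was -0.13 (interval -0.80 to 0.52) in HT29, where so few counts gave the widest interval of the 9, and 0.06 (interval -0.15 to 0.28) in HCT116. The difference of the ratios was -0.20 (interval -0.86 to 0.46).

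IER2 (ENSG00000160888.7, chromosome 19, 13150411 to 13154911, plus strand, 2 exon blocks), a nuclear protein named for its induction by growth factors, had 818 counts in HT29 LPS against 758 in HT29 control, and 1454 counts in HCT116 LPS against 1451 in HCT116 control. Its CPM was 41.2 in HT29 LPS against 42.0 in HT29 control, and 70.2 in HCT116 LPS against 64.1 in HCT116 control. For IER2 the log2 ratio was -0.03 (interval -0.17 to 0.12) in HT29 and 0.13 (interval 0.03 to 0.24) in HCT116. The signs differ, but the difference of the ratios, -0.16, had an interval of -0.34 to 0.02 that included 0. IER2 shares exon bases with noncoding genes on the opposite strand, 946 with the one and 662 with the other. Each of these had 0 counts in every library, and the part of the overlap in the IER2 counts was not tested.

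MYC (ENSG00000136997.21, chromosome 8, 127735434 to 127742951, plus strand, 6 exon blocks), which pairs with MAX to drive genes of growth, had the most counts of the members. It had 4624 counts in HT29 LPS against 3811 in HT29 control, and 5134 counts in HCT116 LPS against 5168 in HCT116 control. Its CPM was 232.9 in HT29 LPS against 211.3 in HT29 control, and 248.0 in HCT116 LPS against 228.5 in HCT116 control. The LPS library was the higher one in each line, and the HT29 LPS library lay just above the HCT116 control library. The log2 ratio was 0.14 (interval 0.08 to 0.20) in HT29 and 0.12 (interval 0.06 to 0.17) in HCT116, the narrowest intervals among the members because the counts are highest. The difference of the ratios was 0.02 (interval -0.06 to 0.10). MYC shares 194 exon bases with the noncoding gene CASC11 on the opposite strand, which had 2 to 5 counts in the libraries.

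IER3 (ENSG00000137331.12, chromosome 6, 30743199 to 30744548, minus strand, 1 exon block), a regulator of cell survival under NF-κB control, had 4 counts in HT29 LPS and 4 in HT29 control, and 12 in HCT116 LPS and 10 in HCT116 control. These are 0.201 and 0.222 CPM in HT29 LPS and control and 0.58 and 0.442 CPM in HCT116 LPS and control, under the minimum of 1 CPM, so no ratio is given. Its transcript matches 5 alternate contigs of the reference. Of the 20 other protein-coding genes within 250 kb of IER3, 16 had no more counts in any library than the 12 of IER3, and DDR1, FLOT1 and MRPS18B, which most epithelial cells use, stood at 0 in all 4 libraries. TUBB, a tubulin gene in the same stretch, had 4395 and 3579 counts in HT29 LPS and control and 3456 and 3167 in HCT116 LPS and control. All 20 have a copy on an alternate contig over at least 50% of their transcript at 98% identity or more, and the part of these copies in the low counts was not tested. The window was chosen after the counts of IER3 were seen. The low counts of IER3 are therefore not read as absence of its transcript.

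A test of LPS that both lines share, called here the shared test, was fitted in edgeR by quasi-likelihood to all 4 libraries, with the line as a block and Benjamini-Hochberg adjustment over the 14516 genes that averaged 1 CPM or more. The lines stand in for replicates, with 1 residual degree of freedom. With so few, edgeR takes most of the error of a gene from a spread pooled over all genes. The p-values and SEs therefore measure neither a gene's own spread nor that between repeat cultures. None of the 9 members was called at 0.05, where 0.22% of all genes were called (0.124% higher and 0.0964% lower), and 2 of 9 had an unadjusted p under 0.05, against 7.58% of genes. FOS had a log2 fold change of -0.26 (SE 0.078) with an edgeR p of 0.0037 and an adjusted p of 0.31, and its CPM was lower with LPS in each line. EGR1 had a log2 fold change of 0.21 (SE 0.081) with an edgeR p of 0.019 and an adjusted p of 0.52, and MYC one of 0.13 (SE 0.064) with an adjusted edgeR p of 0.69. The FOS difference thus failed the correction. DESeq2 also called none, giving an adjusted p for 4 of the 9, among them 0.12 for FOS. Over all alternatives the adjusted p of FOS ran from 0.087 to 1.

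The level of each member was then compared between the lines, HT29 over HCT116, in the same kind of edgeR fit with LPS as a block, where the LPS and the control library of a line stand in for replicates. This fit too has 1 residual degree of freedom and pools its error over genes. Its p-values and SEs, however small, do not measure the spread between repeat cultures. Here 8 of 9 members passed an adjusted p of 0.05, 1 higher and 7 lower in HT29, but so did 76.6% of all genes (38% higher and 38.6% lower), so the count itself does not set the members apart. Likewise the HT29 libraries did not overlap the HCT116 libraries for 8 of 9 members, against 87.7% of genes (43.4% with HT29 above and 44.3% with HT29 below). The median log2 fold change was -0.53 over the members and -0.02 over all genes tested. By size, JUN and ATF3 were the 2 of 9 members called beyond a log2 fold change of 1, where 39.9% of genes were.

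**Figure D2:**
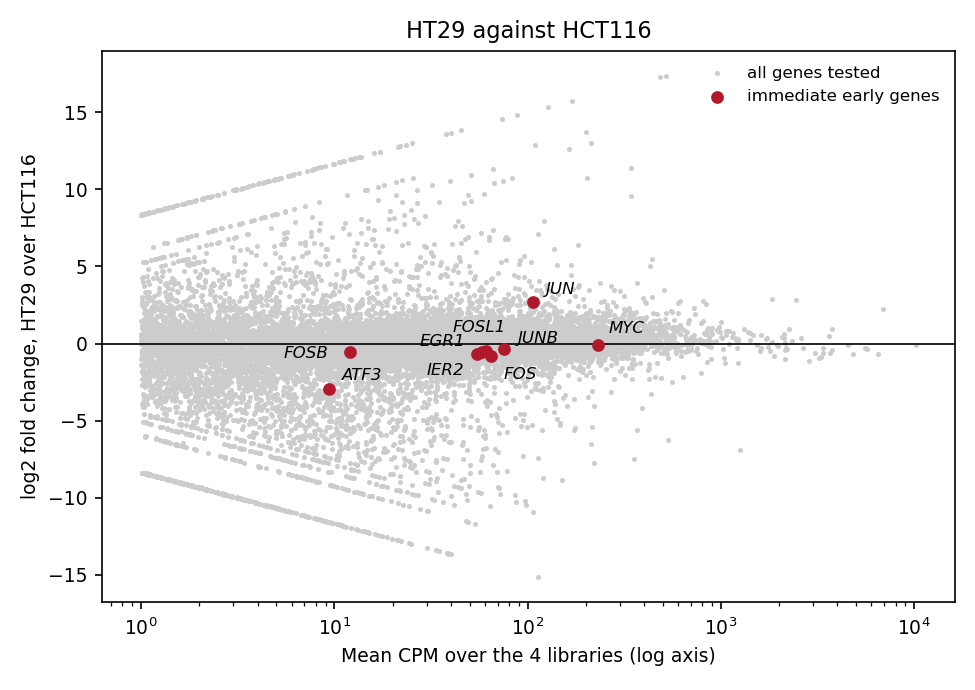
Log2 fold change of HT29 over HCT116 (y axis) against the mean CPM over the 4 libraries on a log axis (x axis), with every tested gene in grey and the 9 measured members in red. JUN stands above the other members at 2.67 and ATF3 below them at -2.93, while the other 7 lie between -0.83 and -0.10.

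JUN was higher in HT29 by a log2 fold change of 2.67 (SE 0.074, edgeR adjusted p = 2.2e-17). In the LPS libraries its CPM was 6.36 times as high in HT29 as in HCT116, and in the control libraries 6.34 times. ATF3 was lower in HT29 by a log2 fold change of -2.93 (SE 0.22, edgeR adjusted p = 1.5e-10), and its CPM was 8.21 times as high in HCT116 as in HT29 among LPS libraries and 7.14 times among control libraries. The line difference of these genes was thus of like size with and without LPS. JUN and ATF3, which can form a dimer with each other, lay at opposite ends of the members.

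FOS had a log2 fold change of -0.83 (SE 0.078), IER2 of -0.69 (SE 0.086), EGR1 of -0.56 (SE 0.081), FOSL1 of -0.45 (SE 0.079) and JUNB of -0.35 (SE 0.073), all called as lower in HT29 with edgeR adjusted p-values no higher than 0.00022. FOSB had a log2 fold change of -0.53 (SE 0.20, edgeR adjusted p = 0.020), which DESeq2 did not call (adjusted p = 0.15). Its CPM in HCT116 was 1.08 times that in HT29 among LPS libraries and 1.95 times among control libraries. MYC, at -0.10 (SE 0.064, edgeR adjusted p = 0.16), was not called, although DESeq2 called it as lower in HT29 (adjusted p = 0.028). Without TMM scaling the median over all genes moved to -0.17 and MYC to -0.25.

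To compare the members with each other, counts were divided by the merged exon length of the gene and scaled to a common total per library, giving TPM, the usual measure of transcript level per length. In HT29 LPS the levels per length were 173.7 for JUN and 170.8 for MYC, whose counting intervals overlapped, then 121.5 for JUNB, 94.6 for FOSL1, 53.3 for EGR1, 45.0 for IER2 and 44.6 for FOS, which again overlapped, and 6.74 for FOSB and 1.72 for ATF3. In HT29 control the order began with 167.4 for JUN and 153.9 for MYC, now apart, and FOS (52.8) stood just ahead of EGR1 (46.5) with overlapping intervals. JUN and MYC led in HT29, and FOSB and ATF3 stood far below the other measured members. With the longest transcript as gene length, MYC stood above JUN in HT29 LPS (157.8 against 145.0) and HT29 control (141.2 against 138.7). That length also put FOS above EGR1 in HT29 LPS (50.7 against 40.0).

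In HCT116 LPS the levels per length were 183.9 for MYC, 158.8 for JUNB, 131.0 for FOSL1, 80.4 for EGR1, 80.0 for FOS and 77.5 for IER2, the last 3 overlapping, followed by 27.6 for JUN, 14.3 for ATF3 and 7.36 for FOSB. In HCT116 control FOS, at 103.8, stood apart above IER2 (76.6) and EGR1 (74.4), which overlapped. In TPM, MYC (183.9 against 183.4), FOSL1 (131.0 against 130.6) and IER2 (77.5 against 76.6) were nearly level between HCT116 LPS and control. JUN (27.6 against 29.1), JUNB (158.8 against 166.0) and ATF3 (14.3 against 14.8) were lower in HCT116 LPS, though their CPM ratios lay above 0. The direction of such small LPS differences in HCT116 thus depended on the scale. By merged exon length, MYC, JUNB and FOSL1 took the first 3 places in both HCT116 libraries. With the longest transcript as gene length, FOS (119.6) stood above FOSL1 (110.2) in HCT116 control. JUN, first in HT29 by merged exon length, was seventh of the members in HCT116, and ATF3 and FOSB changed places between the lines.

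**Figure D3:**
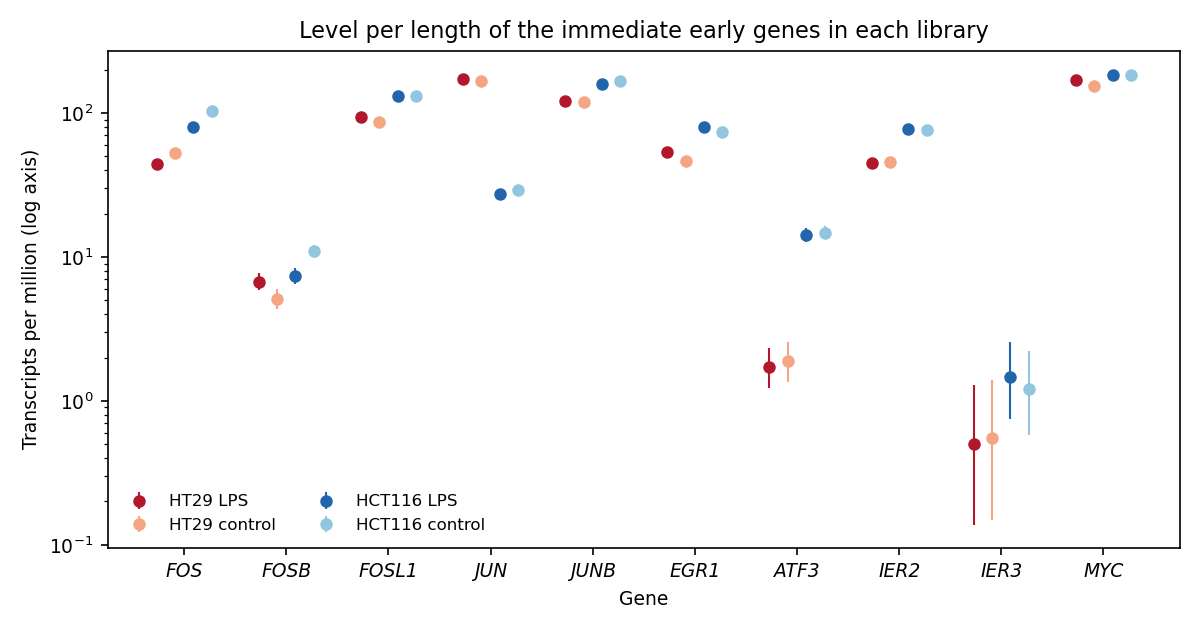
Level per length in TPM on a log axis (y axis) for each of the 10 genes (x axis) in the 4 libraries, HT29 LPS, HT29 control, HCT116 LPS and HCT116 control from left to right. Points are levels and bars are 95% counting intervals, hidden by the point where counts are high. JUN sits at 173.7 and 167.4 in HT29 LPS and control and at 27.6 and 29.1 in HCT116 LPS and control, and ATF3 shows the opposite order.

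The Fos and Jun families were then read as a whole, by adding the AP-1 members outside the set, FOSL2 (Fra-2) and JUND, a Jun protein that resting cells also make. By merged exon length, FOSL1 gave the most Fos family transcripts in every library. Its share was 50.2% in HT29 LPS against 47.4% in HT29 control and 52.5% in HCT116 LPS against 47.2% in HCT116 control. With the longest transcript as gene length, FOS (119.6) stood above FOSL1 (110.2) in HCT116 control. FOS gave 23.7% in HT29 LPS against 28.8% in HT29 control, and 32.1% in HCT116 LPS against 37.5% in HCT116 control, a smaller share in the LPS library of each line. FOSB gave 3.58% in HT29 LPS against 2.78% in HT29 control and 2.95% in HCT116 LPS against 3.96% in HCT116 control.

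In the Jun family, JUN gave 32.2% of the transcripts in HT29 LPS against 31.9% in HT29 control, but 3.73% in HCT116 LPS against 3.50% in HCT116 control. JUNB was nearly level, at 22.5% and 22.8% in HT29 LPS and control and 21.4% and 20.0% in HCT116 LPS and control. JUND made up the rest, 45.3% in both HT29 libraries, and 74.8% in HCT116 LPS and 76.5% in HCT116 control. The lines thus differed in the makeup of their Jun transcripts, and LPS and control libraries of a line hardly did. These shares are of RNA, and neither protein nor dimers were measured.

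**Figure D4:**
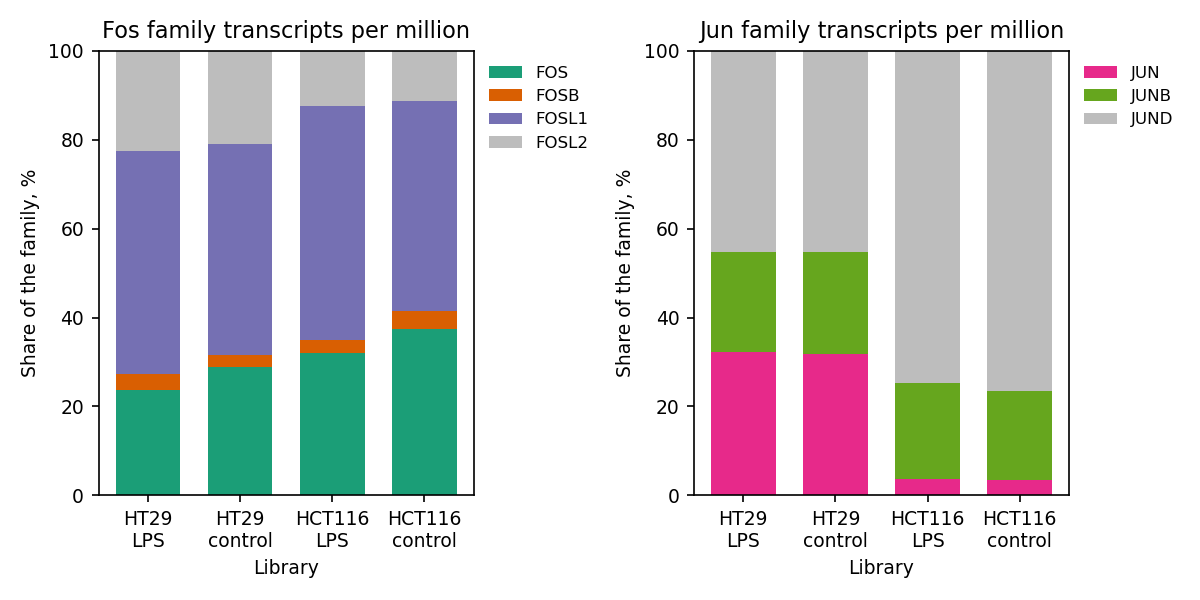
Share in percent of the TPM of the Fos family (left) and the Jun family (right) taken by each member (y axis), for HT29 LPS, HT29 control, HCT116 LPS and HCT116 control (x axis). JUN takes 32.2% and 31.9% of its family in HT29 LPS and control and 3.73% and 3.50% in HCT116 LPS and control, with JUND as the largest share in every library.

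A wider list held 42 other immediate early genes. In HT29, 37 were measured, of which 1 passed 0.58 and 1 passed -0.58 (3.5% and 2.7% of all genes), and their median was 0.0032. In HCT116, 41 were measured, of which 2 passed 0.58 and 1 passed -0.58 (3.56% and 2.34% of all genes), and their median was 0.02. Intervals lay above 0 for 4 and below 0 for 6 of 37 in HT29 (15.9% and 18.5% of all genes), and above 0 for 9 and below 0 for 9 of 41 in HCT116 (17% and 18.2% of all genes). Both intervals lay above 0 for 0 of 37 and below 0 for 1 of 37, against 4.41% and 6.34% of all genes. The HT29 genes were SIK1, a kinase induced by cAMP, with 28 counts in HT29 LPS against 15 in HT29 control (log2 ratio 0.70, uncertain because SIK1 has a copy in the reference), and KLF11, with 248 counts in HT29 LPS against 339 in HT29 control (-0.59, interval -0.83 to -0.35). The HCT116 genes, named after their values were seen, had few counts: NR4A3 had 36 in HCT116 LPS against 19 in HCT116 control, EGR2 34 against 20, and EGR3 22 against 46. EGR2 and EGR3, relatives of EGR1, thus pointed opposite ways in HCT116 and had 0 to 7 counts in the HT29 libraries. GADD45B, a growth arrest gene, had the largest HCT116 ratio among the list genes that averaged 1 CPM over the libraries, 0.37 (272 counts in HCT116 LPS against 229 in HCT116 control).

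**Figure D5:**
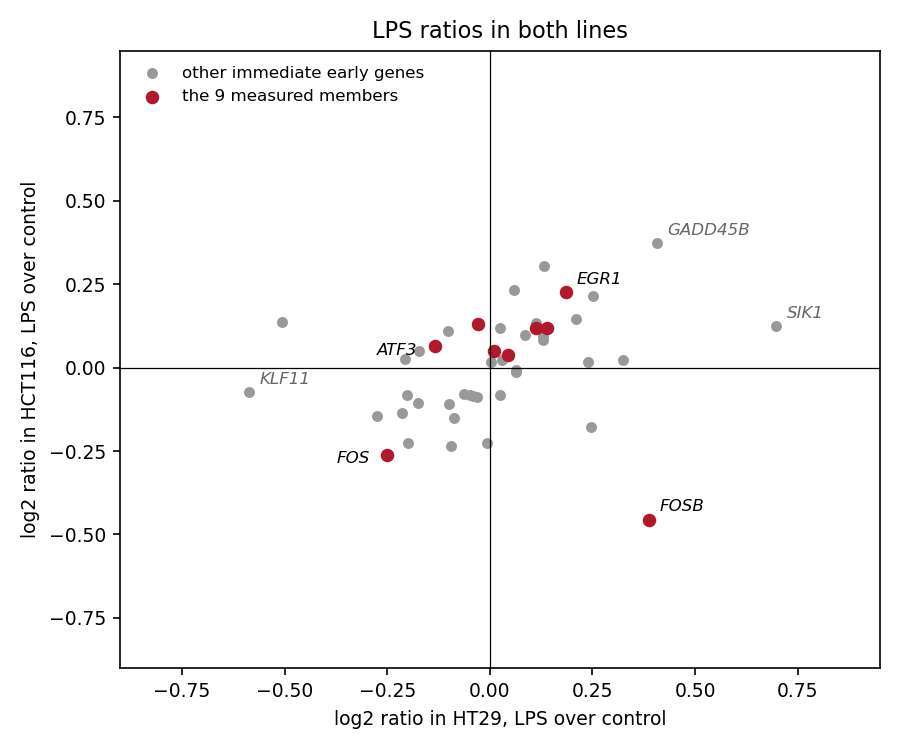
Log2 ratio of LPS over control in HCT116 (y axis) against that in HT29 (x axis) for the 9 measured members (red) and the 37 other immediate early genes measured in both lines (grey). Lines mark 0 on each axis. FOS lies at the lower left, EGR1 at the upper right, and FOSB alone at the lower right with 0.39 in HT29 and -0.46 in HCT116.

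Between the lines, 10 of 38 other immediate early genes were called as higher and 25 as lower in HT29, with a median log2 fold change of -0.86, beside 38% and 38.6% of all genes and a median of -0.02. The genes with the largest fold changes were ID3, an inhibitor of basic helix-loop-helix factors (log2 fold change -7.41, with 11 and 5 counts in HT29 LPS and control and 1539 and 1593 in HCT116 LPS and control), KLF2 (-4.24), and SGK1, a kinase gene that glucocorticoids induce (3.91, with 1468 and 1372 counts in HT29 LPS and control and 100 and 116 in HCT116 LPS and control). IER5, at -2.03, and IER5L, at -2.77, were lower in HT29 as IER2 was.

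Over 9 lists of other genes around the members, 212 genes in all, 195 were tested for LPS in the shared test. DUSP8 was the 1 gene that edgeR called, against 0.22% of all genes, and 21 of the 195 had an unadjusted p under 0.05, against 7.58% of all genes. DUSP8, a phosphatase of JNK and p38 kinases, had 67 counts in HT29 LPS against 3 in HT29 control, and 28 counts in HCT116 LPS against 4 in HCT116 control (log2 fold change 3.62, SE 0.63, edgeR adjusted p = 0.010). It has 2 copies on alternate contigs, which makes its counts uncertain. DESeq2 did not call DUSP8 and called 4 other genes, all with small changes: ODC1 (-0.17), NPM1 (-0.18) and DNAJA1 (-0.17) as lower and KHSRP (0.16) as higher with LPS.

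A list of SRF, ternary complex factors and other signal-regulated factors, among them CREB1, RELA, ETS1 and ETS2, had a median log2 ratio of 0.08 in both lines. With 12 of 12 genes measured, none lay past 0.58 (6.2% of all genes in HT29 and 5.9% in HCT116). CREB1, which binds TGACGTCA, had the largest ratio of the list in each line, 0.38 (interval 0.23 to 0.53) in HT29 and 0.21 (interval 0.07 to 0.35) in HCT116. Its shared log2 fold change was 0.29 (SE 0.10, edgeR adjusted p = 0.43), so it was not called. Between the lines, ETS2 was higher (2.75) and ELK3 lower (-2.69) in HT29.

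Of 34 upstream kinases and phosphatases, 33 were measured in HT29, with a median of -0.03 (1 above 0.58 and 1 below -0.58, against 3.5% and 2.7% of all genes). In HCT116, 32 were measured, with a median of -0.04 (1 above and none below, against 3.56% and 2.34%). In HT29 these were DUSP8 and MAPK11, the p38 beta kinase, with 36 counts in HT29 LPS against 56 in HT29 control. In HCT116 it was MAP3K8, the kinase through which Toll-like receptors reach ERK, with 78 counts in HCT116 LPS against 53 in HCT116 control (log2 ratio 0.66, interval 0.16 to 1.22), while its HT29 ratio was -0.28. DUSP5, a nuclear ERK phosphatase, was lower in HT29 than in HCT116 (log2 fold change -2.64). DUSP10, with 21 counts in HT29 LPS against 8 in HT29 control, and MAP2K6, with 4 counts in HCT116 LPS against 11 in HCT116 control, were under 1 CPM in those lines.

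Among 21 basic leucine zipper partners of AP-1, none of 18 lay past 0.58 in HT29 and 1 of 18 did in HCT116 (6.2% and 5.9% of all genes), with medians of 0.02 and 0.05. BATF2 had opposite signs in the lines, as FOSB did, but the other way round. It had 70 counts in HT29 LPS against 93 in HT29 control, and 82 counts in HCT116 LPS against 53 in HCT116 control (log2 ratios -0.54 and 0.73). JDP2, a repressor that pairs with Jun proteins, had a ratio of 0.57 in HT29 and 0.10 in HCT116. BATF3, at 3 and 0 counts in HT29 LPS and control and 71 and 83 in HCT116 LPS and control, and JDP2, at -1.50, were lower in HT29. The genes of AU-rich element decay, which shorten the life of such transcripts, had medians of 0.06 in HT29 and 0.01 in HCT116. With 12 of 12 measured, none lay past 0.58 (6.2% and 5.9% of all genes). Intervals lay above 0 for 6 and below 0 for 3 in HT29 (15.9% and 18.5% of all genes). In HCT116 they lay above 0 for 4 and below 0 for 3 (17% and 18.2%). PARN, which has a copy in the reference, had ratios of -0.42 in HT29 and 0.576 in HCT116. ZFP36, the decay factor tristetraprolin, had ratios of 0.12 in HT29 and 0.24 in HCT116.

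Genes known as AP-1 targets had a median log2 ratio of 0.11 in HT29, with 2 of 24 above 0.58 and none below -0.58 (3.5% and 2.7% of all genes), and of 0.08 in HCT116, with none of 23 above and 1 below (3.56% and 2.34%). Their intervals lay above 0 for 10 of 24 and below 0 for 1 in HT29 (15.9% and 18.5% of all genes), and above 0 for 8 of 23 and below 0 for 2 in HCT116 (17% and 18.2%). Both intervals lay above 0 for 4 of 21, against 4.41% of all genes. In the shared test edgeR called none of the 26 tested, against 0.22% of all genes. An unadjusted edgeR p under 0.05 was found for 5 of the 26, against 7.58% of all genes. CXCL8, the chemokine interleukin 8, had 494 counts in HT29 LPS against 202 in HT29 control (log2 ratio 1.14, interval 0.91 to 1.39), and 4 counts in HCT116 LPS against 15 in HCT116 control. MMP14, a membrane-bound matrix metalloproteinase, had 70 counts in HT29 LPS against 35 in HT29 control (0.83, interval 0.26 to 1.49) and a ratio of 0.11 in HCT116. SPP1, osteopontin, had 32 counts in HCT116 LPS against 56 in HCT116 control (-0.65), and 0 counts in HT29 LPS against 5 in HT29 control. IL11 had 10 counts in HT29 LPS against 26 in HT29 control and EDN1 9 counts in HCT116 LPS against 1 in HCT116 control, both under 1 CPM in those lines. MMP7 was higher in HT29 than in HCT116 by a log2 fold change of 9.11, with 1845 and 1677 counts in HT29 LPS and control and 4 and 3 in HCT116 LPS and control.

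The network of MYC partners and antagonists had medians of -0.04 in HT29 and 0.08 in HCT116. None of 16 lay past 0.58 in HT29 or in HCT116 (6.2% and 5.9% of all genes). ZBTB17 (MIZ1), which MYC binds to repress genes, had ratios of 0.28 (interval 0.12 to 0.45) in HT29 and 0.33 (interval 0.22 to 0.45) in HCT116, and PVT1, the long noncoding RNA beside MYC, 0.13 in HT29 and 0.31 in HCT116. MXD1, an antagonist of MYC, was lower in the LPS library of HT29 (-0.27, interval -0.45 to -0.10) and had 0.22 (interval -0.13 to 0.57) in HCT116.

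Genes known as MYC targets had a median log2 ratio of -0.06 in HT29, with intervals above 0 for 7 of 31 and below 0 for 16 (15.9% and 18.5% of all genes). In HCT116 their median was -0.03, with intervals above 0 for 3 of 31 and below 0 for 11 (17% and 18.2% of all genes). Below 0 in both lines were 8 of 31, against 6.34% of all genes, while MYC itself lay above 0 in both. None of the 31 was called by edgeR in the shared test, against 0.22% of all genes. Of the 31, 4 had an unadjusted edgeR p under 0.05, against 7.58% of all genes. ODC1, the first enzyme of polyamine synthesis, had ratios of -0.19 in HT29 and -0.16 in HCT116, and NPM1, a nucleolar chaperone, -0.22 in HT29 and -0.15 in HCT116. NOP2 had 35 counts in HT29 LPS against 9 in HT29 control, and 59 counts in HCT116 LPS against 55 in HCT116 control. TERT had -0.29 (interval -0.89 to 0.28) in HT29 and 0.57 (interval 0.33 to 0.82) in HCT116.

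Heat shock genes, taken as a check for another stress response, had medians of -0.08 in HT29 and -0.07 in HCT116. None of 11 and none of 12 lay past 0.58 (6.2% and 5.9% of all genes). Their intervals lay above 0 for 0 of 11 and below 0 for 6 in HT29 (15.9% and 18.5% of all genes), and above 0 for 1 of 12 and below 0 for 7 in HCT116 (17% and 18.2%). Both intervals lay below 0 for 4 of 11, against 6.34% of all genes. In the shared test edgeR called none of the 12 tested, against 0.22% of all genes. An unadjusted edgeR p under 0.05 was found for 2 of the 12, against 7.58% of all genes. HSP90AA1 had ratios of -0.14 in HT29 and -0.21 in HCT116, and DNAJA1 -0.21 in HT29 and -0.15 in HCT116. HSPB8 had 264 counts in HCT116 LPS against 218 in HCT116 control (0.40, interval 0.14 to 0.67). HSPA1A and HSPA1B, which share a near-identical sequence, each have 9 copies in the reference, 8 of them on alternate contigs. They had 0 to 4 counts in every library and could not be read.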

How the data were processed

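Gene counts of 4 RNA-seq libraries were analysed: HT29 LPS, HT29 control, HCT116 LPS and HCT116 control, grouped by their titles, 1 library each. The deposited values are raw counts per gene, which the authors made from NEBNext Ultra libraries. The submitters' processing notes name hg38 and the tools cutadapt 1.9, Trimmomatic 0.39, HISAT2 2.1.0 (alignment) and featureCounts 2.0.1 (counting). No source used here states the annotation release or how strand and multi-mapped reads were handled, so overlapping or copied genes are uncertain. Of 61544 genes, 61445 matched a symbol, 30392 had a count in any library, and 0 columns belonged to no sample.

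Names and positions came from GENCODE 44. Gene length was that in the table, which equals the GENCODE merged exon length for every member except MYC (4584 bases in the table and 6109 in GENCODE) and ATF3 (4040 and 3998). TMM factors from edgeR 4.0.16 (R 4.3.3) were 0.953, 0.944, 1.05 and 1.06 in the order above. A gene needed a mean of 1 CPM, within the line for ratios and over the 4 libraries for tests. Intervals cover counting error only. Reads without molecular identifiers are not independent molecules, so the intervals can be too narrow even for that error. The interval of a difference of ratios was normal on the log scale. Both tests used edgeR's quasi-likelihood fit with Benjamini-Hochberg adjustment and a threshold of 0.05. Copies were found with minimap2 2.31-r1302, and promoters are RefSeq's on GRCh38.p14.

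Alternatives covered the tool (DESeq2 1.42.0), the scaling (DESeq2 size factors, TMM inside a line, library size alone), the prior count (0.5, 5), the filter (none, 5 CPM), the threshold (1), thinning to the smallest library, smooth trends with length and GC content (mgcv 1.9.3), the block, and the longest transcript as length. The members and lists were chosen with earlier results of these data known. The rule for named genes took all 10 members and, from each other list, up to 3 genes with the largest absolute LPS ratio in each line and up to 3 with the largest absolute HT29 over HCT116 fold change, among genes averaging 1 CPM. Of the list genes outside it, IER5, NR4A3, EGR2, EGR3, FOSL2, JUND, MMP14, ODC1, NPM1, HSPA1A and HSPA1B were named after their values were seen.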

Additional observations from a re-analysis of the deposited data

Results flagged for a closer look

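Among the 9 measured members, 3 had an LPS log2 ratio of one sign in HT29 and of the other sign in HCT116. With 1 library per condition the difference was not tested for any of them. FOSB was higher in the LPS library of HT29 and lower in that of HCT116, and its ratio in HT29 minus that in HCT116 was 0.84 (counting interval 0.47 to 1.23). This value ran from 0.84 to 0.89 over 4 alternatives in scaling, prior count and removal of gene length and GC trends. For ATF3 the difference was -0.20 (interval -0.86 to 0.46), on 41 counts in each HT29 library. For IER2 it was -0.16 (interval -0.34 to 0.02), and it shrank to -0.07 with the trends removed. The intervals of ATF3 and IER2 included 0.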

How the results depend on the processing

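The count of members past the LPS threshold (0 in each line), of members called for LPS (0) and of members called between the lines (8 of 9) stayed within 1.5 times under every alternative tried, and no called value changed sign. JUN in HCT116, which was not called, moved to -0.02 with the trends removed, against 0.04. Over the alternatives the HCT116 ratio fell as low as 0.06 for FOSL1 (against 0.12), 0.06 for IER2 (against 0.13) and 0.0041 for JUNB (against 0.05). Intervals were not computed again under the alternatives. The count of 4 members with an interval above 0 in HCT116, FOSL1 and IER2 among them, therefore holds for the main settings only. FOSB lost its call between the lines in DESeq2 (adjusted p = 0.15), and MYC gained one in DESeq2 (adjusted p = 0.028) and with library size alone (adjusted p = 0.0026). The level per length of MYC in HT29 LPS was 157.8 with the longest transcript as gene length, and 48.4 as CPM per kilobase from library size alone, against a TPM of 170.8. JUN in HT29 LPS was 145.0 with the longest transcript, below MYC, against a TPM of 173.7. In HCT116 control that length put FOS (119.6) above FOSL1 (110.2).

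Counts over all genes depended more on the settings. Above and below 0.58 there were 462 and 356 genes in HT29, 4967 and 3904 with no filter, 60 and 73 at a minimum of 5 CPM, and 136 and 83 at a threshold of 1. In HCT116 there were 510 and 336, 3884 and 3674, 73 and 42, and 119 and 89 in the same order. The shared test called 18 genes higher and 14 lower, 44 and 40 with DESeq2, 6 and 8 with its size factors (42.9% higher, against 56.2%), 58 and 45 with no filter, 78 and 58 at 5 CPM, and 0 and 0 with no block. Of the other lists it called 1 gene, but 4 with DESeq2 and 0 with DESeq2 size factors, at 5 CPM or with no block. List genes past 0.58 numbered 7 in HT29 (20 with no filter, 2 at 5 CPM, 3 at a threshold of 1) and 6 in HCT116 (12, 0 and 0). Between the lines, library size alone gave 4616 genes higher and 6354 lower, against 5514 and 5598.

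No pairing of replicates within a line was possible, because each condition has 1 library. Pairing by line is already in the shared test, as its block, and the fit without it called 0 genes. Leaving out any library leaves no residual degree of freedom, so that was not run. Depth limits ATF3 in HT29 and IER3 in all libraries.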
